A study of Mus musculus with 16 samples.

Results

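The genes described here make and carry the peptides that MHC class I molecules show to CD8 T cells: Tap1 and Tap2, Tapbp and Tapbpl, Erap1, Psmb8, Psmb9 and Psmb10, and Psme1 and Psme2. They were taken by gene symbol from the deposited expression table, in which each symbol had 1 row, and are 10 of its 54532 genes. The table covered 16 tumours grown from B16F10, a mouse melanoma cell line, in C57BL/6J mice of both sexes aged 8 weeks, each implanted with 100000 cells under the skin of the right flank. Tumours came either from wild-type cells (WT) or from BdP cells, which are labelled both as Pros1-deficient and as a Pros1 knockdown. Whether BdP is 1 clone is not stated in the labels. Mice were injected intraperitoneally with PBS or with 5 mg/kg of cisplatin, a DNA-damaging platinum drug. Injections began 8 days after implantation and were given in 2 rounds, each of 3 daily doses. The groups were WT PBS, WT cisplatin, BdP PBS and BdP cisplatin, with 4 libraries each. End-stage tumours were disaggregated whole, so a library holds RNA of melanoma, immune and stromal cells, and fewer cells of a type cannot be told apart from less RNA per cell. The labels do not say how replicates arose beyond their numbers, so p-values measure the spread between these samples.

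As background, the proteasome cuts proteins in the cytosol, and interferon gamma makes cells replace its constitutive catalytic subunits Psmb5, Psmb6 and Psmb7 by Psmb8, Psmb9 and Psmb10, which gives the immunoproteasome. Psme1 and Psme2 form the PA28 cap that opens the proteasome. The Tap1-Tap2 transporter moves the peptides into the endoplasmic reticulum, where Erap1 trims them and Tapbp (tapasin) and Tapbpl (TAPBPR) help to load and edit them on class I molecules. Interferon gamma acts on this pathway in part through the factor Irf1, which it induces, and through Nlrc5, the class I transactivator.

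Of these genes, 4 lie side by side in the MHC region of chromosome 17 (GRCm38 positions from the deposited table): Psmb9 at chr17:34181988-34187764 on the minus strand, then Tap1 at chr17:34187553-34197225, Psmb8 at chr17:34197721-34201454 and Tap2 at chr17:34203527-34216321 on the plus strand. Tapbp lies nearby at chr17:33915899-33929288. The others are Tapbpl at chr6:125223933-125231860, Erap1 at chr13:74639568-74693201, Psmb10 at chr8:105935735-105938444, Psme1 at chr14:55578123-55581529 and Psme2 at chr14:55587441-55591113. The gene bodies of Psmb9 and Tap1 share 212 bases on opposite strands, and the sources used here do not say whether counting used strand, so reads from that stretch cannot be told apart. All 7928 bases of Tapbpl are shared with Vamp1 on the other strand, Tapbp shares 3421 bases with Zbtb22 and Erap1 shares 834 bases with Cast. Psme2 has a near-copy, Psme2b, on chromosome 11, so its values are uncertain.

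Promoter sequence is shown because these genes moved together between tumours. RefSeq windows (GRCm38.p6, 250 bases before to 50 bases after a start site) matched 8 of the 10 genes, in 9 windows, all but Tap2 and Tapbpl. They were searched on both strands for GAAANNGAAA, a form of the interferon-stimulated response element (ISRE) that IRF factors bind, and for TTCNNNGAA, the gamma-activated site (GAS) of interferon gamma signalling, and the matches to these forms do not overlap. Matches are in capitals. The first stretch, chr17:34187331-34187555 on the plus strand, is the whole 225 bases between the opposed start sites of Psmb9 (at its left) and Tap1 (at its right), and held neither form. The second, chr13:74639789-74639858 on the plus strand, leads into the Erap1 start site. The third, chr17:34198038-34198126 on the plus strand, lies before the RefSeq start site of Psmb8 (chr17:34198195). The last, chr14:55578493-55578522 on the plus strand, begins 1 base before the Psme1 start site. All start sites here are those of RefSeq, and the gene bodies given above begin farther upstream for Psmb9, Psmb8, Erap1 and Psme1. The stretches shown thus lie within those gene bodies.
Tap1 and Psmb9, between the start sites: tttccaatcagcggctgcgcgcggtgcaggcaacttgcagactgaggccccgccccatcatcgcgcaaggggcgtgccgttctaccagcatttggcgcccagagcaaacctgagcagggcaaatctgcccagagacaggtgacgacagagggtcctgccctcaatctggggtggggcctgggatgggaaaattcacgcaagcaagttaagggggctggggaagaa
Erap1: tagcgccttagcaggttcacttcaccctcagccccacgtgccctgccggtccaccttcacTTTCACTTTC
Psmb8: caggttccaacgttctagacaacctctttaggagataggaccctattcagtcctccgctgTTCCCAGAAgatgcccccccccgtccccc
Psme1: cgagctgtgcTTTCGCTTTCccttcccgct
The Erap1 match to the ISRE form ran from 4 bases before to 5 bases after the start site, and that of Psme1 from 9 to 18 bases after it. Psmb8 held the GAS form 97 to 89 bases before its RefSeq start site. Of the 8 matched genes 2 held the ISRE form and 1 the GAS form, against 3.99% and 9.55% of all 27025 genes with RefSeq windows of this length. A match describes letters in the window, and a window without one says nothing of the factors.

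Pros1, the gene targeted in BdP cells, ran from 1.24 to 2.52 FPKM in the 8 BdP libraries and from 4.79 to 11.5 FPKM in the 8 WT libraries. FPKM counts fragments per kilobase of gene, scaled here by a between-library size factor and not by the total reads of a library. Between 10051843 and 27055771 reads per library were assigned to genes. The mitochondrial share of reads was 76.9% in WT PBS 1 (leaving 2322202 nuclear reads), 12.2% in WT cisplatin 3, 21.7% in WT cisplatin 4 and at most 5.06% elsewhere. The summed level of 6 melanoma markers lay between 4603 and 8552 FPKM in every library, whereas that of 7 T cell markers ran from 0.197 (WT PBS 4) to 165 FPKM (BdP PBS 2).

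Among the 10 genes, the PA28 subunit Psme1 was the most abundant per length, with a median of 40.1 FPKM over the 16 libraries, followed by Psmb10 (30.0), Tapbp (19.4) and Psme2 (17.0). Tap2 had the lowest median, 4.98 FPKM, next to Tapbpl at 5.51 and Erap1 at 6.02, and the ranges of these 3 overlapped widely. The genes differed far more in how much they varied. Between the lowest and the highest library Psmb8 differed 155-fold and Psmb9 112-fold, the transporter genes Tap1 and Tap2 27.6-fold and 25.3-fold, and Psme1 only 3.73-fold. The SD of log2(FPKM + 1) within groups was 1.44 for Psmb8 and 0.53 for Psme1, against a median of 0.24 over the 12319 genes that reached 1 FPKM in at least 4 libraries. All 10 lay between the 87.0 and the 99.2 percentile of those genes.

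**Figure D1:**
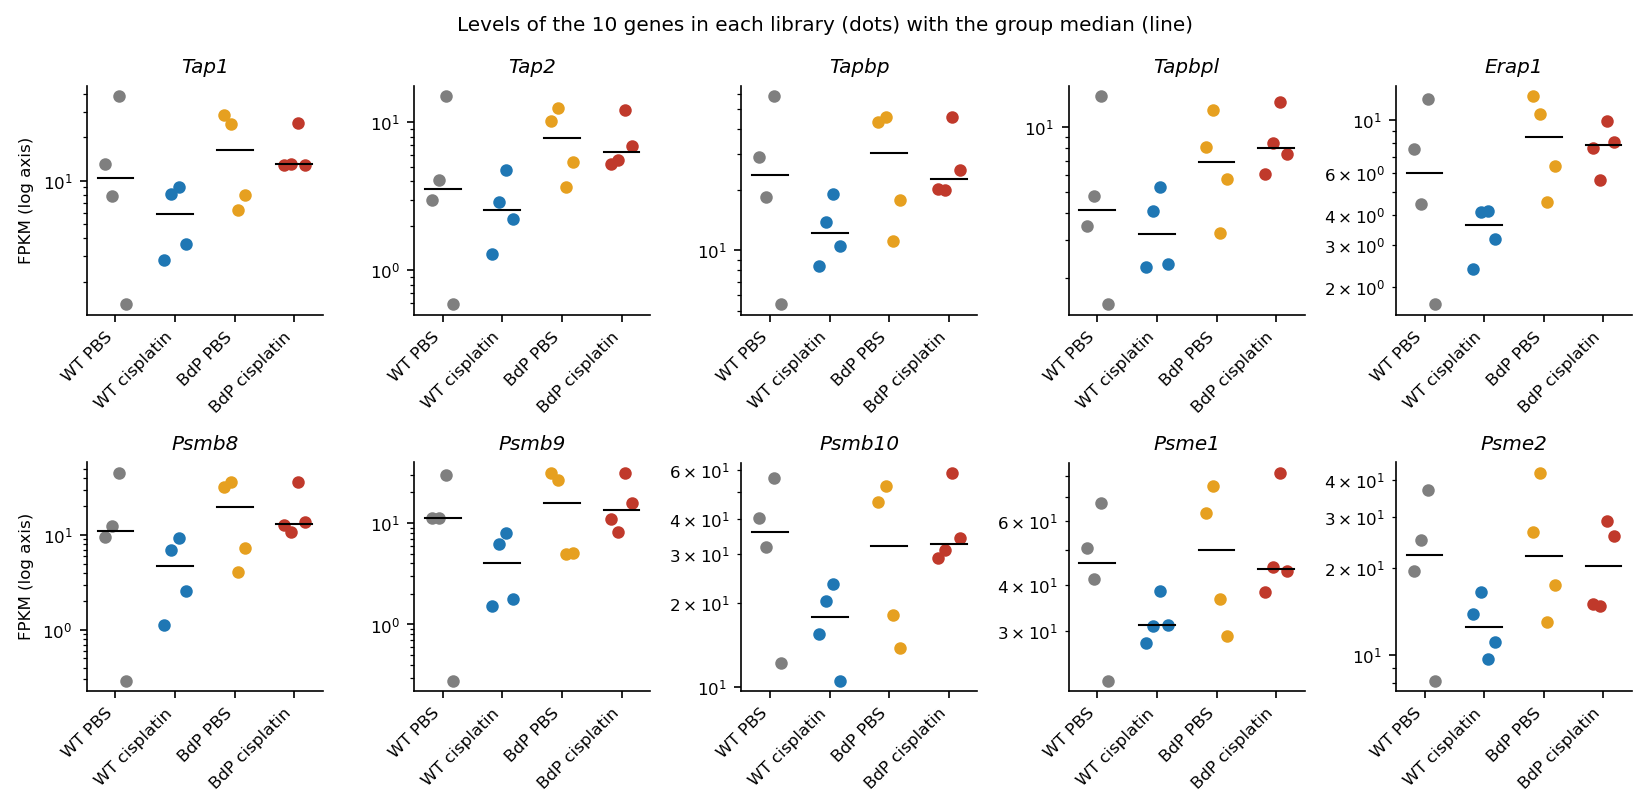
FPKM (log axis) of the 10 genes in each of the 16 libraries, by group; dots are libraries and lines group medians. The PBS groups spread widely, WT cisplatin libraries sit low, and the 4 BdP cisplatin libraries lie above the 4 WT cisplatin libraries for all genes but Psme1 and Psme2.

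The same tumours were high or low for gene after gene. WT PBS 4 was the lowest of the 16 libraries for 9 of the 10 genes, and Psmb10 was lowest in WT cisplatin 4. WT PBS 3 was the highest for Tap1, Tap2, Tapbp, Tapbpl and Psmb8, BdP PBS 1 for Erap1 and Psmb9, BdP PBS 2 for Psme2, and BdP cisplatin 3 for Psmb10 and Psme1. After group means were subtracted, the 45 pairs of genes had Pearson correlations of 0.80 to 0.98 (median 0.917, n = 16 libraries, which share their depth and cell mix). The highest was that of Psmb8 with Psmb9. Without WT PBS 3 and WT PBS 4, the libraries farthest from the centre, the pairs ran from 0.59 to 0.96, with a median of 0.850.

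The question of whether loss of Pros1 changes these genes in treated tumours was addressed by BdP cisplatin against WT cisplatin. In these libraries 8 of the 10 genes (all but the PA28 genes) had every BdP value above every WT value. Of all 12319 genes tested, 6.41% did not overlap in this direction. Tap1, which binds and pumps peptide, measured 12.9, 13.0, 25.1 and 12.9 FPKM in BdP cisplatin libraries 1 to 4 and 2.82, 8.11, 9.03 and 3.62 FPKM in WT cisplatin libraries 1 to 4. The BdP mean was 2.71-fold higher. Its partner Tap2 measured 5.20, 5.57, 12.1 and 6.97 against 1.30, 2.91, 4.76 and 2.21 FPKM. The lowest BdP value of Tap2 lay just above the highest WT value, that of WT cisplatin 3.

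The immunoproteasome subunits Psmb8 and Psmb9 showed the widest gaps between mean levels. Psmb8 measured 12.7, 10.8, 35.9 and 13.6 FPKM in BdP cisplatin and 1.13, 6.94, 9.37 and 2.58 FPKM in WT cisplatin, a 3.64-fold ratio of means. Psmb9 measured 10.9, 8.21, 31.0 and 15.8 against 1.54, 6.19, 8.05 and 1.79 FPKM, a 3.75-fold ratio. In both, WT cisplatin 1 and 4 were low, and WT cisplatin 3 came close to the lowest BdP library. Psmb10, already abundant in WT tumours, measured 29.1, 30.8, 58.4 and 34.1 against 15.5, 20.2, 23.5 and 10.5 FPKM, a 2.19-fold ratio.

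The trimming enzyme Erap1 measured 7.64, 5.61, 9.91 and 8.10 FPKM in BdP cisplatin and 2.38, 4.12, 4.17 and 3.17 FPKM in WT cisplatin. Its libraries were the tightest of the 8 genes that did not overlap. The peptide editor Tapbpl measured 6.04, 8.45, 13.1 and 7.47 against 2.25, 4.09, 5.29 and 2.32 FPKM. Tapbp ran from 19.8 to 45.9 FPKM in BdP cisplatin and from 8.40 to 19.0 in WT cisplatin, so these groups only just separated. The PA28 genes overlapped: Psme1 ran from 38.3 to 81.5 against 27.8 to 38.6 FPKM, and Psme2 from 14.8 to 28.9 against 9.71 to 16.5 FPKM. BdP cisplatin 3 was the highest BdP cisplatin library for each of the 10 genes.

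In limma's fit over all genes, 0 of the 10 were called in this contrast at an adjusted p below 0.05. Benjamini-Hochberg adjustment covered 12319 genes, of which 1.07% were called. An unadjusted p below 0.05 was found for 1704 of these 12319 genes and for 3 of the 10. The smallest p-values were those of Erap1 (log2 difference 0.98 ± 0.39 SE, adjusted p = 0.295), Tapbpl (1.13 ± 0.46, adjusted p = 0.300) and Psmb10 (1.09 ± 0.47, adjusted p = 0.324). All 10 differences were positive, from 0.63 to 1.78, with a median of 1.11, against a median of 0.0068 over all genes. The 95% intervals of Psmb8, from -0.19 to 3.75, and of Psmb9, from -0.066 to 3.56, include 0 and large rises alike. Fitted on the 8 cisplatin libraries alone, Erap1 was called (adjusted p = 0.0354 in limma), against 2.43% of all genes.

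Immune markers differed between these groups too, though not all in the same direction. The 7 T cell markers summed to 9.89 to 101.1 FPKM in BdP cisplatin and 1.63 to 45.8 in WT cisplatin, the 7 macrophage markers to 160 to 1072 against 118 to 527, and the pan-leukocyte gene Ptprc (CD45) ran from 2.82 to 14.6 against 0.512 to 6.88 FPKM. No marker of these lists was at 0 throughout a group. These 3 ranges overlapped, as did those of the 5 B and plasma cell markers, 1.73 to 331 against 2.47 to 84.7 FPKM. The summed level of the 4 NK cell markers did not overlap, as for the 8 genes: it was 4.99, 2.66, 18.8 and 4.22 FPKM in BdP cisplatin 1 to 4 and 0.493, 0.633, 1.98 and 1.27 FPKM in WT cisplatin 1 to 4. The 4 dendritic cell markers summed to 0.948 to 3.45 against 0.487 to 0.944 FPKM. These low sums only just separated, and 0 of the 4 markers were abundant enough to test. The 4 neutrophil markers were lower, at 12.9 to 34.2 against 34.4 to 106 FPKM, and also only just separated. The part of cell mix in the difference was not tested. Without WT PBS 1 and the 2 WT cisplatin libraries rich in mitochondrial reads, the median difference of the 10 genes was 1.21. That fit left only WT cisplatin 1 and 2 on the WT side, and WT cisplatin 1 had the lowest mean of the 10 genes in its group. It called 0 of the 10 (adjusted p from 0.395 to 0.785 in limma), against 0.364% of all genes.

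**Figure D2:**
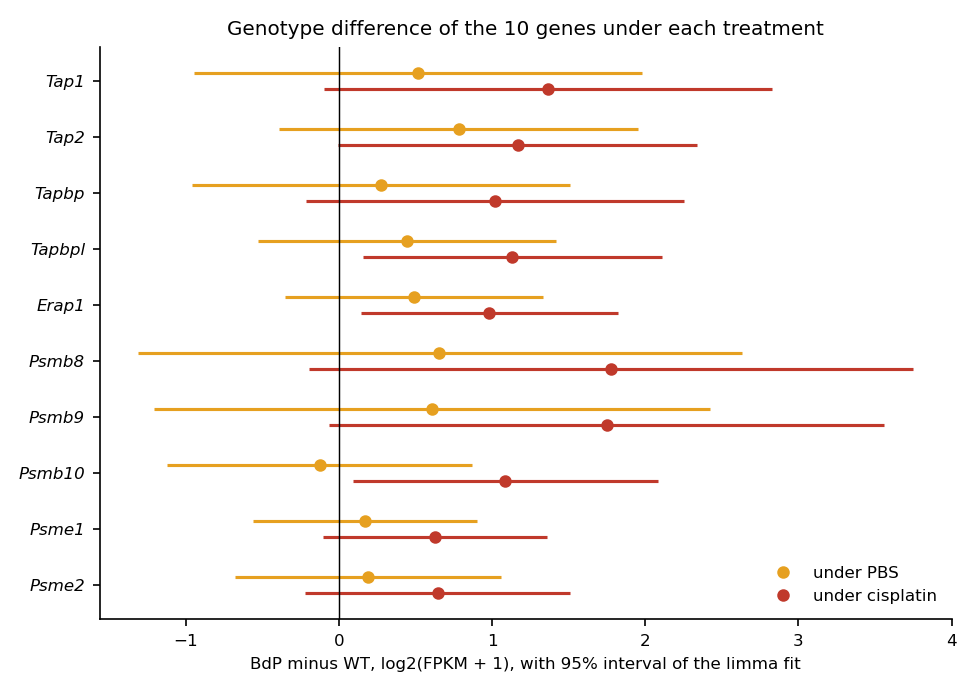
Difference BdP minus WT on the log2(FPKM + 1) scale for the 10 genes (dots) with the 95% interval of limma's fit (lines), under PBS and under cisplatin. Under cisplatin all 10 lie above 0 with a median of 1.11, and under PBS 9 lie above 0 with a median of 0.47 and every interval includes 0.

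Under PBS, BdP and WT tumours overlapped for all 10 genes. Psmb8 measured 32.3, 36.5, 4.02 and 7.30 FPKM in BdP PBS libraries 1 to 4 and 9.54, 12.4, 45.2 and 0.291 FPKM in WT PBS libraries 1 to 4. Each genotype thus held both high and low tumours. Tap1 likewise measured 28.7, 24.8, 6.23 and 7.96 against 13.2, 7.85, 38.5 and 1.40 FPKM. No gene of the 10 was called (0.99% of all genes were), and 0 had an unadjusted p below 0.05. The smallest p-values were those of Tap2 (0.78 ± 0.55 SE, adjusted p = 0.430), Erap1 (0.49 ± 0.39, adjusted p = 0.487) and Tapbpl (0.45 ± 0.46, adjusted p = 0.588). The median difference, 0.47, rested on single libraries of both genotypes: it was -0.20 without WT PBS 4, 0.88 without WT PBS 3, 0.73 without BdP PBS 3, 0.19 without BdP PBS 1 and 0.20 without BdP PBS 2, where 6 of 10 genes were above 0. It was 0.18 with sample quality weights, 1.35 as TPM (transcripts scaled to a constant library sum, where the median of all genes was 0.76) and 0.97 as TPM without mitochondrial genes (all genes 0.40). Of the immune markers, all 7 of T cells (median 1.28), all 5 of B and plasma cells (median 3.12) and Ptprc (1.53) were above 0 too, and their part in the difference was not tested.

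Averaged over both treatments, all 10 differences between BdP and WT were positive, with a median of 0.76, or 1.34 as TPM. In limma 0 of the 10 were called, against 5.86% of all genes, and Erap1 (0.74 ± 0.28 SE, adjusted p = 0.118), Tap2 (0.97 ± 0.39, adjusted p = 0.135) and Tapbpl (0.79 ± 0.32, adjusted p = 0.142) had an unadjusted p below 0.05. Of all 12319 genes tested, 3175 had such a p. Without WT PBS 3, Erap1, Tap2 and Tapbpl were called, against 13.2% of all genes. Most immune markers were again above 0. They included all 7 of T cells (median 1.32, 6 with an unadjusted p below 0.05) and all 5 of B and plasma cells (median 2.22, 5 with such a p). All 4 of NK cells (median 0.76, 3 with such a p), all 7 of macrophages (median 0.71, 0 with such a p) and Ptprc (1.55) were above 0 too. Of the 3 neutrophil markers tested, 1 was above 0 (median -0.57). None of these markers was called, and their part in the difference was not tested. In the same contrast all 14 constitutive 20S genes were below 0 as FPKM (median -0.22) and above 0 as TPM (median 0.35, under the 0.45 of all genes). As FPKM 2 of them were called, Psma5 (-0.48 ± 0.09, adjusted p = 0.00835) and Psmb4 (-0.56 ± 0.12, adjusted p = 0.0164). Among 16 regulators 3 were called, all higher in BdP. They were the kinases Jak2 (0.48 ± 0.10, adjusted p = 0.0166) and Jak1 (0.62 ± 0.17, adjusted p = 0.0468), which carry the interferon gamma signal, and the factor Irf2 (0.56 ± 0.15, adjusted p = 0.0457). Within groups these 3 also rose with Ptprc, with called slopes of 0.15 (Jak2), 0.30 (Jak1) and 0.27 (Irf2). Of the 16 regulators 10 were called on Ptprc, against 7.08% of all genes. The part of cell mix in the calls of regulators and of 20S genes was not tested, nor was any other cause.

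Cisplatin was compared with PBS within each genotype. In WT tumours all 10 genes had a lower fitted mean under cisplatin, with log2 differences of -0.94 (Psmb8) to -0.37 (Tapbpl), a median of -0.65, and overlapping groups throughout. None was called, against 0.00812% of all genes, and 0 had an unadjusted p below 0.05. The smallest p-values belonged to Psmb10 (-0.84 ± 0.47 SE, adjusted p = 0.659), Psme2 (-0.61 ± 0.41, adjusted p = 0.685) and Erap1 (-0.54 ± 0.39, adjusted p = 0.702). The median was -0.19 without WT PBS 3 and -1.13 without WT PBS 4, and under rescaling to TPM it was 0.18, with 8 of 10 genes above 0, where the median of all genes shifted to 0.65. As TPM without mitochondrial genes it was -0.13, with 3 genes above 0 (all genes 0.46). All 7 macrophage markers (median -0.70) and all 5 erythroid genes (median -4.63) were below 0 as well, while Ptprc was at -0.0060. Other markers went both ways. All 5 of B and plasma cells (median 0.61) and the 3 neutrophil markers tested (median 0.87) were above 0, as were 1 of 7 T cell and 0 of 4 NK cell markers. No marker was called, and their part in the difference was not tested.

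In BdP tumours the cisplatin and PBS groups overlapped for all 10 genes, and mean levels differed little: Tap2 averaged 7.45 ± 3.16 FPKM (SD, n = 4) under cisplatin and 7.93 ± 4.13 under PBS, and Psmb9 16.5 ± 10.2 and 16.9 ± 13.8. No member was called, nor any gene tested (0%), and the median difference was 0.098. Psmb10 (0.37 ± 0.47 SE), Tapbpl (0.31 ± 0.46) and Psme2 (-0.16 ± 0.41) had the smallest p-values, each with an adjusted p of 1 in limma. The sign of that median rested on single libraries: it was -0.25 without BdP PBS 3, -0.13 without BdP PBS 4 and -0.16 without BdP cisplatin 3, but 0.35 without BdP PBS 1, 0.36 without BdP PBS 2, 0.20 without BdP cisplatin 1, 0.19 without BdP cisplatin 2 and 0.16 without BdP cisplatin 4. It was 0.16 as TPM and 0.20 with sample quality weights. The 7 macrophage markers (median -0.73) and the 5 erythroid genes (median -5.42) were all below 0 here too. So were the 5 B and plasma cell markers (median -0.71) and the 3 neutrophil markers tested (median -0.25), whereas 3 of 7 T cell and 3 of 4 NK cell markers were above 0.

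The interaction, which subtracts the WT response to cisplatin from the BdP response, was positive for all 10 genes, with a median of 0.71, but for 5 of 10 as TPM (median 0.022, where the median of all genes shifted to -0.61) and for 7 of 10 as TPM without mitochondrial genes (median 0.28). None was called, nor any gene tested (0%), and 0 members had an unadjusted p below 0.05. Psmb10 had the smallest p (1.21 ± 0.66 SE, adjusted p = 0.835), then Tapbpl (0.68 ± 0.65, adjusted p = 0.883) and Psmb9 (1.14 ± 1.20, adjusted p = 0.894). The median ran from 0.22 to 1.20 when single libraries were left out, 0.22 without WT PBS 3, 0.39 without BdP PBS 3 and 1.20 without WT PBS 4. Averaged over genotypes, cisplatin minus PBS was negative for all 10 genes (median -0.29) and positive for all 10 as TPM (median 0.14, all genes 0.35), or for 4 as TPM without mitochondrial genes (median -0.011). The median was -0.048 without WT PBS 3, with 4 genes above 0, -0.54 without WT PBS 4, -0.44 without BdP PBS 3, -0.14 without BdP PBS 1, -0.16 without BdP PBS 2 and -0.19 without WT cisplatin 1. All 7 macrophage markers (median -0.72) and all 5 erythroid genes (median -5.06) were below 0. The 3 neutrophil markers tested (median 0.35) were above 0, as were 3 of 5 B and plasma cell, 1 of 7 T cell and 2 of 4 NK cell markers. Again 0 of the 10 genes were called, against 0% of all genes. Psme2 (-0.38 ± 0.29, adjusted p = 0.879), Erap1 (-0.29 ± 0.28, adjusted p = 0.908) and Tapbp (-0.32 ± 0.41, adjusted p = 0.937) had the smallest p-values there.

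Each inducible catalytic subunit was next set against the constitutive subunit it replaces. Over the 16 libraries Psmb5 lay between 62.8 and 130 FPKM and Psmb7 between 21.9 and 34.9 FPKM. Under cisplatin the log2 ratio Psmb8/Psmb5 was -2.84, -3.11, -1.70 and -2.74 in BdP and -6.68, -3.91, -3.53 and -4.60 in WT. These groups did not overlap and differed by 2.08 (exact two-sided permutation p = 0.0286, the smallest that 4 against 4 allows). Psmb9/Psmb6 differed by 2.18 and Psmb10/Psmb7 by 1.12, with the same exact permutation p of 0.0286. Under cisplatin the constitutive subunits themselves differed little between BdP and WT (log2 differences 0.030 for Psmb5, -0.10 for Psmb6 and 0.0072 for Psmb7). These ratios thus largely restate the separation of Psmb8, Psmb9 and Psmb10 given above, and are not independent of it or of each other.

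Of the 12 comparisons of ratios made, 3 had that p, which became 0.114 after Benjamini-Hochberg adjustment over the 12. The other 9 had exact permutation p-values of 0.2 or more. Under PBS the ratio Psmb8/Psmb5 was -3.57, -3.38, -0.97 and -8.46 in WT and -1.49, -1.61, -4.84 and -3.22 in BdP. In WT PBS 4 there was hardly any Psmb8 or Psmb9 transcript, with 0.0028 of Psmb8 per Psmb5 and 0.0031 of Psmb9 per Psmb6, while Psmb10 was at 12.2 FPKM, or 0.349 per Psmb7. WT PBS 3 had 0.509 of Psmb8 per Psmb5. Psmb10/Psmb7 reached above parity in several tumours, the highest being 2.09 in BdP PBS 1, which had the lowest Psmb7 (21.9 FPKM) and not the highest Psmb10. Under PBS this log2 ratio was 0.24 higher in BdP while Psmb10 itself differed by -0.13 and Psmb7 by -0.36 ± 0.10 SE (adjusted p = 0.0962 in limma).

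**Figure D3:**
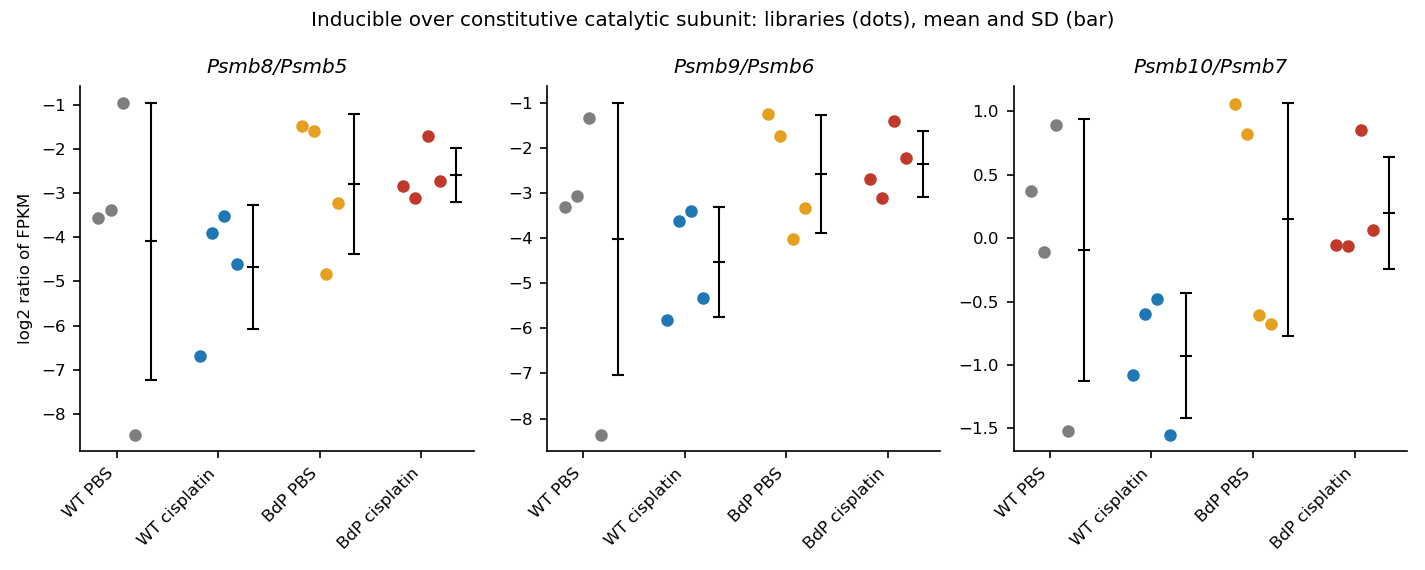
Log2 ratio of FPKM of each inducible catalytic subunit to the constitutive subunit it replaces, by group; dots are libraries, bars mean and SD (n = 4). Under cisplatin the BdP dots lie above all WT dots in the 3 panels, by 2.08, 2.18 and 1.12 between means, and the PBS groups overlap.

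Differences between tumours of the same group were described by the slope of each gene on Irf1, with group means in the fit. Irf1 itself measured 7.08, 6.56, 18.2 and 2.06 FPKM in WT PBS, 2.47, 3.75, 5.69 and 3.79 in WT cisplatin, 20.7, 12.2, 4.52 and 5.58 in BdP PBS, and 7.43, 7.90, 14.8 and 8.73 in BdP cisplatin. Irf1 was lowest in WT PBS 4, and its 4 highest libraries (BdP PBS 1, WT PBS 3, BdP cisplatin 3 and BdP PBS 2) were also the 4 with the highest mean of the peptide genes. All 10 peptide genes rose with Irf1 (10 of 10 called, against 9.04% of all genes), with a median slope of 0.95 log2 units per log2 unit of Irf1, against -0.0080 over all genes.

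Immunoproteasome genes had the steepest slopes, 1.79 ± 0.17 (SE) for Psmb8 (adjusted p = 3.34e-05 in limma) and 1.63 ± 0.17 for Psmb9 (adjusted p = 6.65e-05). The transporter genes followed at 1.34 ± 0.12 for Tap1 (adjusted p = 2.05e-05) and 1.05 ± 0.11 for Tap2 (adjusted p = 7.92e-05), with tapasin (Tapbp) at 1.13 ± 0.10 (adjusted p = 1.89e-05). Slopes were lower for Psmb10 (0.84 ± 0.12, adjusted p = 0.000624), Tapbpl (0.82 ± 0.12, adjusted p = 0.000707) and Erap1 (0.75 ± 0.08, adjusted p = 0.000109). The PA28 genes had the lowest, 0.63 ± 0.15 for Psme2 (adjusted p = 0.0129) and 0.62 ± 0.09 for Psme1 (adjusted p = 0.000445). Psme2 lost its call without WT PBS 3 or WT PBS 4. Differences between these slopes were not tested.

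**Figure D4:**
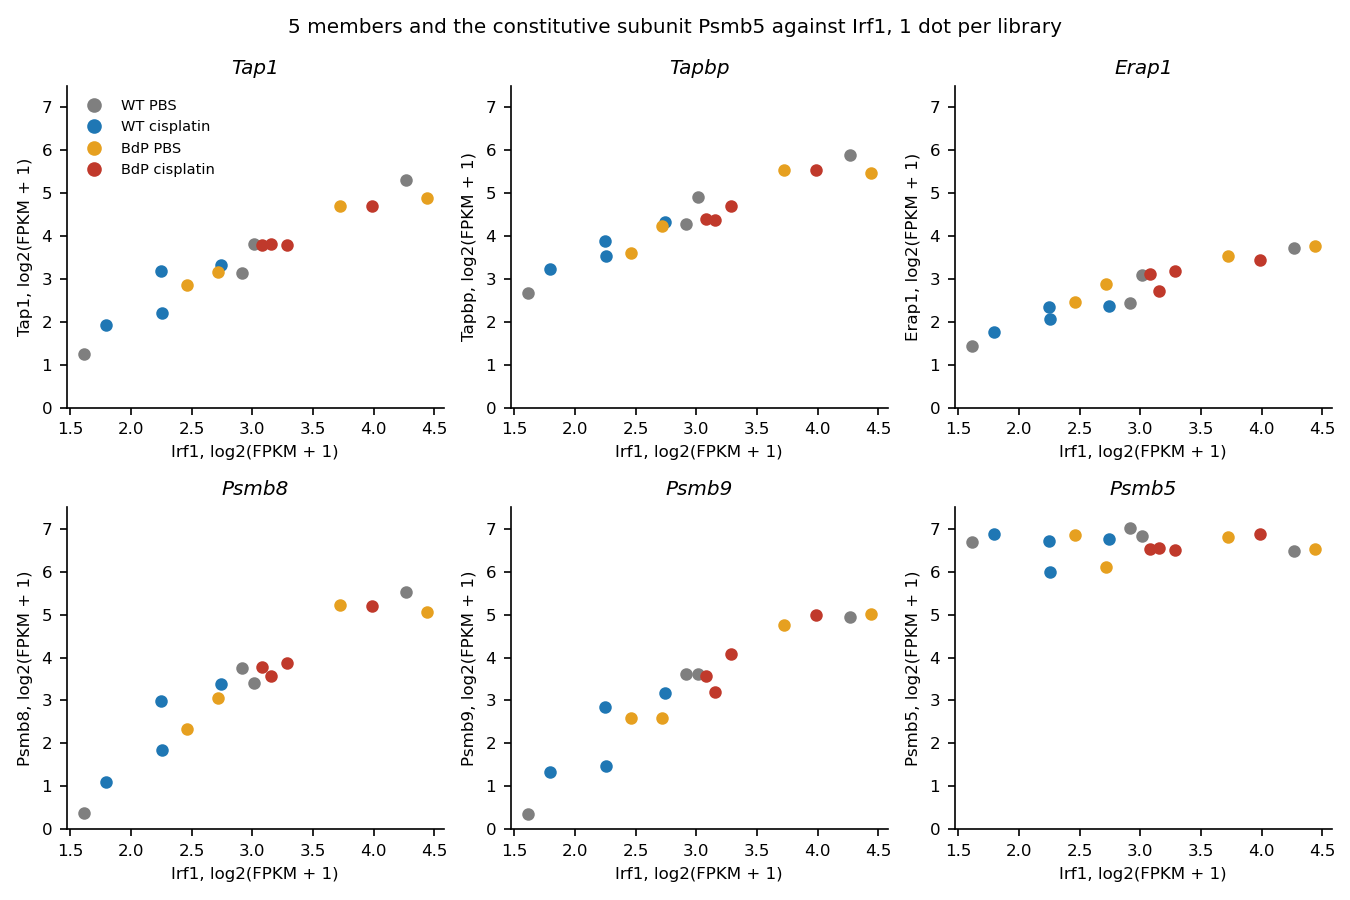
Level of 5 of the genes and of the constitutive subunit Psmb5 against Irf1, both as log2(FPKM + 1), 1 dot per library, coloured by group. The 5 rise from WT PBS 4 at the lower left to the tumours richest in Irf1, while Psmb5 stays level, with a slope of -0.0054 within groups.

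Constitutive proteasome genes were not called on Irf1. Of 14 constitutive 20S genes 0 passed in limma (0 also at an unadjusted p below 0.05), with slopes between -0.12 (Psma3) and 0.071 (Psmb2). The other activators and assembly factors gave 0 of 5, among them Psme3, the third PA28 gene (0.078 ± 0.062). Among class I chains and chaperones 5 of 8 rose with Irf1, namely the heavy chains H2-K1 (1.12 ± 0.08), H2-Q4 (0.85 ± 0.07), H2-D1 (1.24 ± 0.12) and H2-T23 (1.07 ± 0.12), and the light chain B2m (1.11 ± 0.15). The general chaperones Calr (0.065), Canx (-0.028) and Pdia3 (0.038), which serve other glycoproteins too, were not called. Of 6 other trimming peptidases tested, 1 rose, the aminopeptidase Lap3 (0.26 ± 0.06, adjusted p = 0.0176).

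Among the 15 other regulators 8 rose with Irf1, among them Nlrc5 (0.84 ± 0.09, adjusted p = 9.67e-05), Ifng (1.39 ± 0.21, adjusted p = 0.000731) and Irf2 (0.34 ± 0.07, adjusted p = 0.00943). Ifng was at 0 in WT PBS 4 and highest, at 11.8 FPKM, in BdP cisplatin 3. BdP cisplatin 2 had little Ifng, 0.134 FPKM, and the highest Ptprc of its group, 14.6 FPKM. Its Tap1 was at 13.0 FPKM, close to BdP cisplatin 1 and 4. For Tapbp, Erap1, Psmb8 (10.8 FPKM), Psmb9 (8.21 FPKM) and Psme2 it was the lowest library of its group, and for the other members it was not. How Ifng bears on these levels was not tested. The feedback phosphatase gene Ptpn1, which encodes PTP1B, was also called (0.38 ± 0.08, adjusted p = 0.0103).

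**Figure D5:**
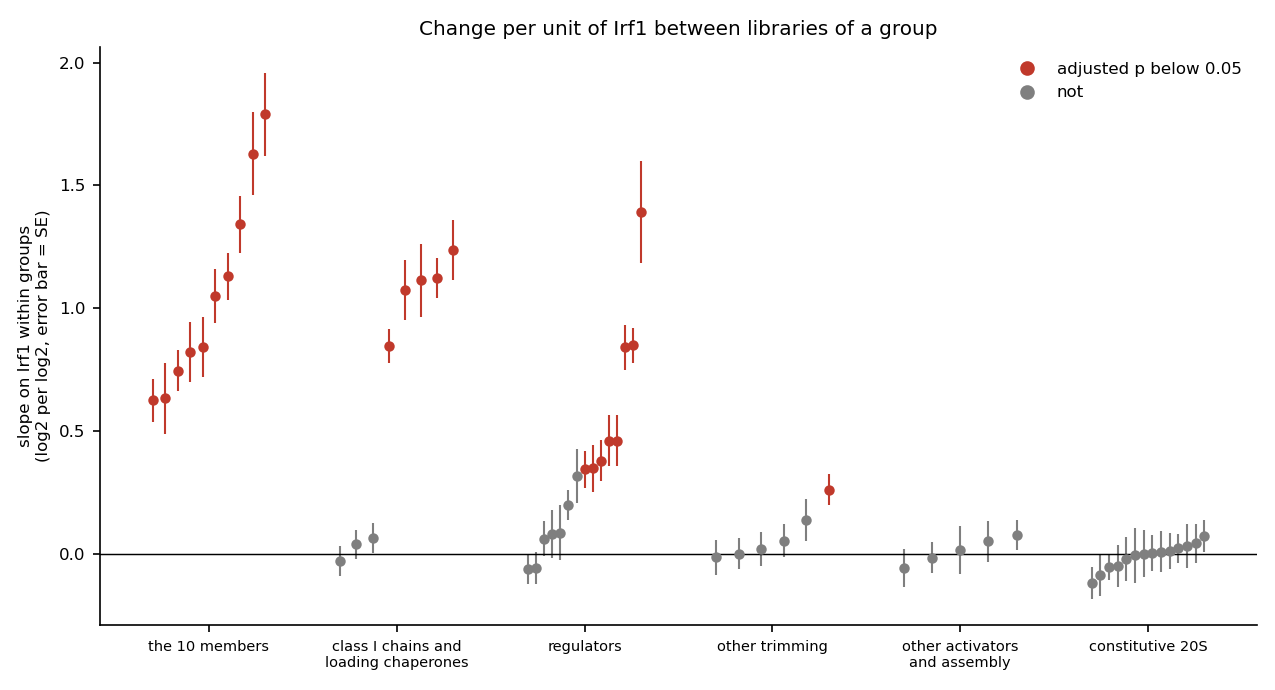
Slope on Irf1 within groups (log2 per log2, error bars SE) of the 10 members and of the genes of 5 related lists; red dots have an adjusted p below 0.05. All 10 members and 5 of 8 class I genes are red, and the 14 constitutive 20S genes lie between -0.12 and 0.071.

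Immune cell markers rose with Irf1 too. The 7 T cell, 4 NK cell and 7 macrophage markers were all called, as was Ptprc (1.17 ± 0.24, adjusted p = 0.00679). Called markers numbered 1 of 3 for neutrophils and 0 of 6 for melanoma cells, 0 of 5 for B and plasma cells, 0 of 5 for erythroid cells, 0 of 2 for fibroblasts and 0 of 1 for endothelium, and 0 of 4 dendritic cell markers were abundant enough to test. On Ptprc, 8 of the 10 peptide genes rose (7.08% of all genes were called), Erap1 (adjusted p = 0.0738) and Psme2 (adjusted p = 0.133) being the exceptions, and the median slope was 0.59. That count fell to 2 without WT PBS 3 and to 5 without any 1 of WT PBS 4, BdP PBS 2 and BdP PBS 3, and was 10 at most.

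With Irf1 and Ptprc in the same fit, 6 of the 10 genes were called for Irf1 (Tap1, Tap2, Tapbp, Erap1, Psmb8 and Psmb9), against 1.12% of all genes. For Ptprc 0 of the 10 were called in that fit, against 3.47% of all genes. This fit was chosen after the data were seen. Irf1 and Ptprc rose together in these tumours, and the fit assigns the genes to no cell type.

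Genes most like the members, by Pearson correlation with their mean log2(FPKM + 1) over 16 libraries after subtracting group means, included Irf7 (0.987), Ifi47 (0.984), H2-D1 (0.982), Igtp (0.975), H2-K1 (0.974), Nkg7 (0.966), Rtp4 (0.965), H2-DMb1 (0.964) and Ly6a (0.963). Irf7 is an interferon-induced transcription factor, Ifi47 and Igtp are interferon-inducible GTPases, and Nkg7 is a granule protein of cytotoxic lymphocytes. Each of these correlations was at least 0.93 without WT PBS 3 and WT PBS 4. Of the 12319 genes 92, the members included, had a correlation above 0.9. Psme2b, the near-copy of Psme2, ran from 9.63 FPKM in WT PBS 4 to 60.6 in BdP cisplatin 3.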

How the data were processed

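Bulk RNA was sequenced from 16 tumours in 4 groups. The deposited values are FPKM made by the authors; the submitters' processing notes name CASAVA, HISAT2 2.0.5, featureCounts 1.5.0-p3 and the build GRCm38 (mm10), without roles. Multiplied by gene length, FPKM gave whole multiples of 1 step for 100% of values (tolerance 0.1 read), which gave the reads per library, and the step equalled a between-library size factor (ratio 1.00), so values were not normalised again.

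The 12319 genes that reached 1 FPKM in 4 or more libraries were fitted with limma 3.58.1 in R 4.3.3. Values entered as log2(FPKM + 1), the 16 libraries shared 1 fit with a mean-variance trend, and Benjamini-Hochberg adjustment covered all genes. Fold changes are on that scale, which understates changes of low genes. Errors are standard errors unless given as SD. Slopes used log2(FPKM + 1) of Irf1 or Ptprc beside group means. Ratios were compared by exact two-sided permutation tests in Python. The fit was tested on simulated data. Full statistics are given for the 3 members with the smallest p per contrast and any called, and up to 4 genes with the smallest p per related list. The members, lists and tests were chosen with earlier results of these data known, so their patterns are not independent evidence. A gene that this rule names is not reported here. Genes named outside that rule, such as Psme2b, Psme3 and Ptpn1, were chosen for their role. Alternatives were another pseudocount (0.1), other filters, TPM, sample weights, a replicate block, fits on 2 groups and leaving out libraries. Depth of 10051843 to 27055771 reads limits low values most in WT PBS 1.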

Additional observations from a re-analysis of the deposited data

Results flagged for a closer look

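For normally spread values, chance passes Dixon's 95% limit of 0.829 in about 1 in 20 tests of a library that stands apart. In 40 such tests (10 genes in 4 groups of 4), run on FPKM without a log, 3 libraries' values were farther from their group than that limit allows. All were BdP cisplatin 3: its Tap1 (25.1 FPKM, against 12.9 to 13.0 in the other BdP cisplatin libraries), its Psmb8 (35.9 FPKM, against 10.8 to 13.6) and its Psme1 (81.5 FPKM, against 38.3 to 44.8). That tumour also had the highest Ifng of the 16, 11.8 FPKM. Because the 10 genes moved together between tumours, the 40 tests are not independent, and the 3 flagged values describe 1 tumour. The tests were not run on log values, on which high values stand out less.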

How the results depend on the processing

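The genotype difference under cisplatin kept its sign for all 10 genes in each alternative run (median 0.90 to 1.33), and 8 genes did not overlap as FPKM, 9 as TPM. There Erap1 alone was called with sample quality weights, against 7.65% of all genes. It was also the 1 member called in the fit of the 8 libraries alone, against 2.43% of all genes. The genotype difference averaged over treatments gave 1 called member with sample quality weights, against 12.1% of all genes. It gave 0 to 3 when single libraries were left out. The 3 came without WT PBS 3, where 13.2% of all genes were called. The 10 calls on Irf1 became 6 with Ptprc beside it, and 9 to 10 without single libraries. As TPM they stayed at 10, but 27.9% of all genes were then called and the median slope of all genes was 0.41, against 9.04% and -0.0080 as FPKM. As TPM without mitochondrial genes they also stayed at 10, against 6.30% of all genes (median slope 0.073). The calls on Ptprc became 4 with no filter (2.69% of all genes), 0 with Irf1 beside it and 2 to 10 without single libraries. With Irf1 beside it the Ptprc slope turned negative for Tap1 (-0.029), Erap1 (-0.13), Psmb9 (-0.11), Psmb10 (-0.028) and Psme2 (-0.020). TPM, which put the median of all genes at 0.65 for cisplatin in WT and 0.35 averaged over genotypes, turned the cisplatin difference in WT positive for 8 of the 10 genes, among them Psmb10 (0.024), Psme2 (0.22) and Erap1 (0.19), and the averaged one for all 10, among them Psme2 (0.058), Erap1 (0.10) and Tapbp (0.14). These 6 values lie below the shifted medians. Psme2 in BdP under cisplatin gave 0.085 with sample quality weights and -0.41 to 0.14 without single libraries. Without single libraries, log2 ratios under cisplatin (BdP minus WT) ran from 1.42 to 2.47 (Psmb8/Psmb5), 1.75 to 2.56 (Psmb9/Psmb6) and 0.91 to 1.27 (Psmb10/Psmb7), with exact permutation p up to 0.0857 where 3 face 4 libraries. Under PBS they ran from -0.15 to 2.35, -0.016 to 2.32 and -0.23 to 0.57. For cisplatin minus PBS in WT they ran from -2.04 to 0.46, -1.97 to 0.37 and -1.31 to -0.51, and in BdP from -0.49 to 0.63, -0.25 to 0.67 and -0.23 to 0.35. The cause of these changes was not tested. Replicate numbers were not shown to pair samples: deviations of 24 same-numbered pairs correlated from -0.61 to 0.42 and 3 of 16 libraries correlated best with their own number. With a replicate block 0 members were called in the group contrasts, 10 on Irf1 (6.07% of all genes) and 6 on Ptprc (5.21%).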
